A study of Mus musculus with 8 samples.

Results

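The cyclooxygenases and prostaglandin synthases are the enzymes that turn membrane lipid into prostaglandins, and 10 of their genes were followed in the gravid uterus of wild-type and cyclooxygenase-1 knockout (Cox-1 KO) mice. The genes were Ptgs1 and Ptgs2, Pla2g4a, Ptges, Ptges2, Ptges3, Ptgds, Hpgds, Ptgis and Tbxas1. They were found by the gene symbol that the array annotation gives to each probe set, a probe set being the group of short probes that reports 1 transcript. Ptgs1 has no probe set under its symbol in that annotation and was read from the probe set that the study itself assigns to it. Among the deposited probe sets, 13119 genes are named by a probe set of their own. The 10 genes had 13 of the 27940 deposited probe sets that are not array controls. All 13 had at least 4 arrays with a signal of 100 and up, the filter for testing. Ptgs1 passed that filter through its wild-type arrays and would not have passed on its Cox-1 KO arrays alone.

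Uterine RNA at gestational d18.0 from 4 wild-type and 4 Cox-1 KO females was hybridized to Affymetrix mouse 430 2.0 arrays, with the RNA of 1 mouse on each array. Wild-type mice were C57BL/6 and the Cox-1 KO mice C57BL/6 x Sv129 per the labels, which give an age of 6 to 16 weeks for both groups. The methods name the second strain 129P2 and start the age range later. The knockout is a germline deletion carried by every cell of the mouse. The groups thus differ in strain as well as in Ptgs1, and effects of either on a signal cannot be told apart. The question was whether any other gene of prostaglandin synthesis was higher where Cox-1 is missing.

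Prostaglandins are made in steps. Cytosolic phospholipase A2 frees arachidonic acid from membrane lipid, a cyclooxygenase converts it to prostaglandin H2, and a terminal synthase then makes the prostaglandin E, D, F or I, or the thromboxane, that leaves the cell. In the mouse uterus Cox-1 rises late in gestation, and the prostaglandin F2α made from it brings about regression of the corpus luteum and the fall in progesterone that precedes labor. Cox-2 is the inducible isoform, low in most tissues at rest.

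Array medians ran from 731 to 757, so the arrays were on the same scale. All 10 markers of myometrium and endometrial stroma were measured, with a summed signal of 201650 to 216562 for wild-type and 198460 to 215474 for Cox-1 KO uterus. Of 15 genes of yolk sac and fetal liver 13 were measured, and their summed signal was 32114 to 40682 on wild-type replicates 1 to 3 and 43917 on Cox-1 KO replicate 2, against 277629 on wild-type replicate 4 and 303530 to 422364 on Cox-1 KO replicates 1, 3 and 4. These are the 4 arrays high in the apolipoprotein gene Apoa1, at 50275 to 69038 against 342 to 842 on the other arrays. On those other arrays most of the summed signal was that of 1 gene, Rbp4. It was at 26827 to 34145 there and at 32401 to 39535 on the arrays high in Apoa1. The sum thus understates the contrast in the genes that follow Apoa1. None of the 13 genes was at 0, and the methods state that fetal membranes and placentas were removed. Of 10 trophoblast markers 2 were measured above the filter, with a summed signal of 5705 to 18254 for wild-type and 13938 to 17527 for Cox-1 KO uterus. Nearly all of this sum was Tpbpa. Precision is limited by having 4 arrays per genotype, and in whole tissue fewer cells of a type and less RNA per cell cannot be told apart.

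The stretches of DNA before the start sites of Ptgs1 and Ptgs2 are shown because they set the isoform that is missing here beside the one that could stand in for it, and those of Ptges2 and Ptgds because these genes had the largest differences in signal among the other 9. They are the 250 bases before the annotated start in RefSeq (GRCm38.p6), 5′ to 3′ on the strand of the gene. Capitals mark matches to 6 motifs searched on both strands: the TATA box TATAAA, the E-box CACGTG, the cyclic AMP response site TGACGT, the GC box GGGCGG, the progesterone receptor site TGTTCT and the full palindromic estrogen response element. TGACGT and TGTTCT are half-sites, called sites here for short.
Ptgs1, chr2:36230176-36230425, plus strand: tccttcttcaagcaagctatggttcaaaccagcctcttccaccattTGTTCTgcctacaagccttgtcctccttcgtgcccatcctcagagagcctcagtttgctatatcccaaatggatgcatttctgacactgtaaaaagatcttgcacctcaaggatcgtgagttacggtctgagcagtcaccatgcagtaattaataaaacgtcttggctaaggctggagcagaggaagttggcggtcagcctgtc
Ptgs2, chr1:150099781-150100030, plus strand: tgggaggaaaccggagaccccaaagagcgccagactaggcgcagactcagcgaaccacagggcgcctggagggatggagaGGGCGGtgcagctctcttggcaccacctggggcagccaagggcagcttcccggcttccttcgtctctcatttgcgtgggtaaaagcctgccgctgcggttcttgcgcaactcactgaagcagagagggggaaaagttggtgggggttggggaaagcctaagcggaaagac
Ptges2, chr2:32395640-32395889, plus strand: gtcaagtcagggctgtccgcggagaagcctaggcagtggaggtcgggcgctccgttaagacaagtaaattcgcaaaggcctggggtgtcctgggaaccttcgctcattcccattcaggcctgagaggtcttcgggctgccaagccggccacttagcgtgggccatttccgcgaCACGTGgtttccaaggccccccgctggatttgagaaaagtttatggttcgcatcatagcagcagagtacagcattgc
Ptgds, chr2:25469750-25469999, minus strand: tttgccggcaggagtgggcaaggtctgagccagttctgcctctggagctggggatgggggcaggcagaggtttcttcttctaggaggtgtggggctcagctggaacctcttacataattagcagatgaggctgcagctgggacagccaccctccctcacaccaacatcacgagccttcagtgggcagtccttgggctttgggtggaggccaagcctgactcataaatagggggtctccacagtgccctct

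Of these 4 stretches the Ptgs2 one was the richest in G and C, at 61.6%, and that of Ptgs1 the poorest, at 48.0%. In the full RefSeq window, which runs 50 bases past the start, Ptgs2 also held a cyclic AMP response site and an E-box that share 2 bases, in caccactACGTCACGTGgagtccg (chr1:150100036-150100059, plus strand). An E-box is present in 7.15% of all 32851 windows and a cyclic AMP response site in 7.51%. Ptges2 held an E-box 77 bases before its start, and Ptgs1 a progesterone receptor site, a motif found in 19.0% of windows. Pla2g4a and Ptges, whose stretches are not shown, held that progesterone receptor site as well. No window of a member held that estrogen response element, which 0.0700% of all windows hold. A window was given for 9 of the 10 genes, and Ptgis has none in the table. These matches are descriptions of the letters only.

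Ptgs1, which encodes Cox-1, was almost absent from the Cox-1 KO uterus and was the only one of the 10 genes to pass the test. Its signal was 7048, 10610, 10756 and 10508 on the wild-type arrays, given here and below in the order of replicates 1 to 4, and 88, 122, 76 and 136 on the Cox-1 KO arrays. Every Cox-1 KO array lay far below every wild-type array. The mean fell from 9730.5 ± 1791 to 105.5 ± 28.2 (SD, n = 4 per genotype), a level below which only 6.54% of probe sets had their mean signal. The log2 difference was -6.55 (SE 0.197, limma adjusted p = 5.66e-08), the smallest p of all 26444 probe sets tested. Because 2 Cox-1 KO arrays were under 100, where a MAS5 signal is close to background, the fall on this probe set is better given as a bound. With signals under 100 set to 100 it was at least 84.5-fold on this probe set. Where the probes of this set lie relative to the deleted part of the gene is not given in the sources used here.

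Wild-type replicate 1 carried less Ptgs1 than the other wild-type arrays. Its 7048 stood apart from the 10508 to 10756 of replicates 2 to 4. This array also had the lowest summed signal of 8 epithelial markers, 87722 against 104608 to 129303 on the other 7 arrays. Most of that sum was Krt8, Krt18 and Krt19, which were lowest there, as was Cldn4. Cdh1, Epcam, Ehf and Elf3 were each lower on some other array. The summed signal of the 6 measured mast cell markers of 9 listed was highest there, 8436 against 3508 to 7778. Mcpt4 and Fcer1a were highest there, while Kit, Cpa3, Tpsb2 and Cma1 were each higher on some other array. The summed signal of the 2 measured trophoblast markers was lowest there as well, 5705 against 13222 to 18254. Nearly all of it was Tpbpa, at 5604. The other marker, Psg18, was at 101 there and at 67 to 487 on the other arrays. None of these markers was at 0 on any array. The part of these cells in its Ptgs1 signal was not tested, and without the array the log2 difference was -6.69.

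Among all probe sets, the pattern most like that of Ptgs1 over the 8 arrays belonged to a probe set with no gene in the annotation, with a Pearson correlation of 0.999. Its signals were 5733, 8294, 8116 and 7748 on the wild-type arrays and 546, 648, 461 and 611 on the Cox-1 KO arrays. It too was lowest in wild-type replicate 1. Its log2 difference was -3.72 (limma adjusted p = 2.36e-07), a smaller fall than on the Ptgs1 probe set. Which gene it reports is not given in the sources used here. The estimate of 84.5-fold holds for the Ptgs1 probe set only. Of 12663 annotated genes the 3 most alike were Gnl3l (0.975), Tcf15 (0.963) and Rbm18 (0.958), and 32 genes had a correlation above 0.9. These correlations describe 8 points that fall into 2 clusters by genotype. Rbm18, an RNA-binding protein gene, lies on chromosome 2 with 1 protein-coding gene between it and Ptgs1, and its signal was 2151 ± 104 for wild-type and 1622 ± 47.1 for Cox-1 KO uterus (SD, n = 4 per genotype, limma adjusted p = 0.107).

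**Figure D1:**
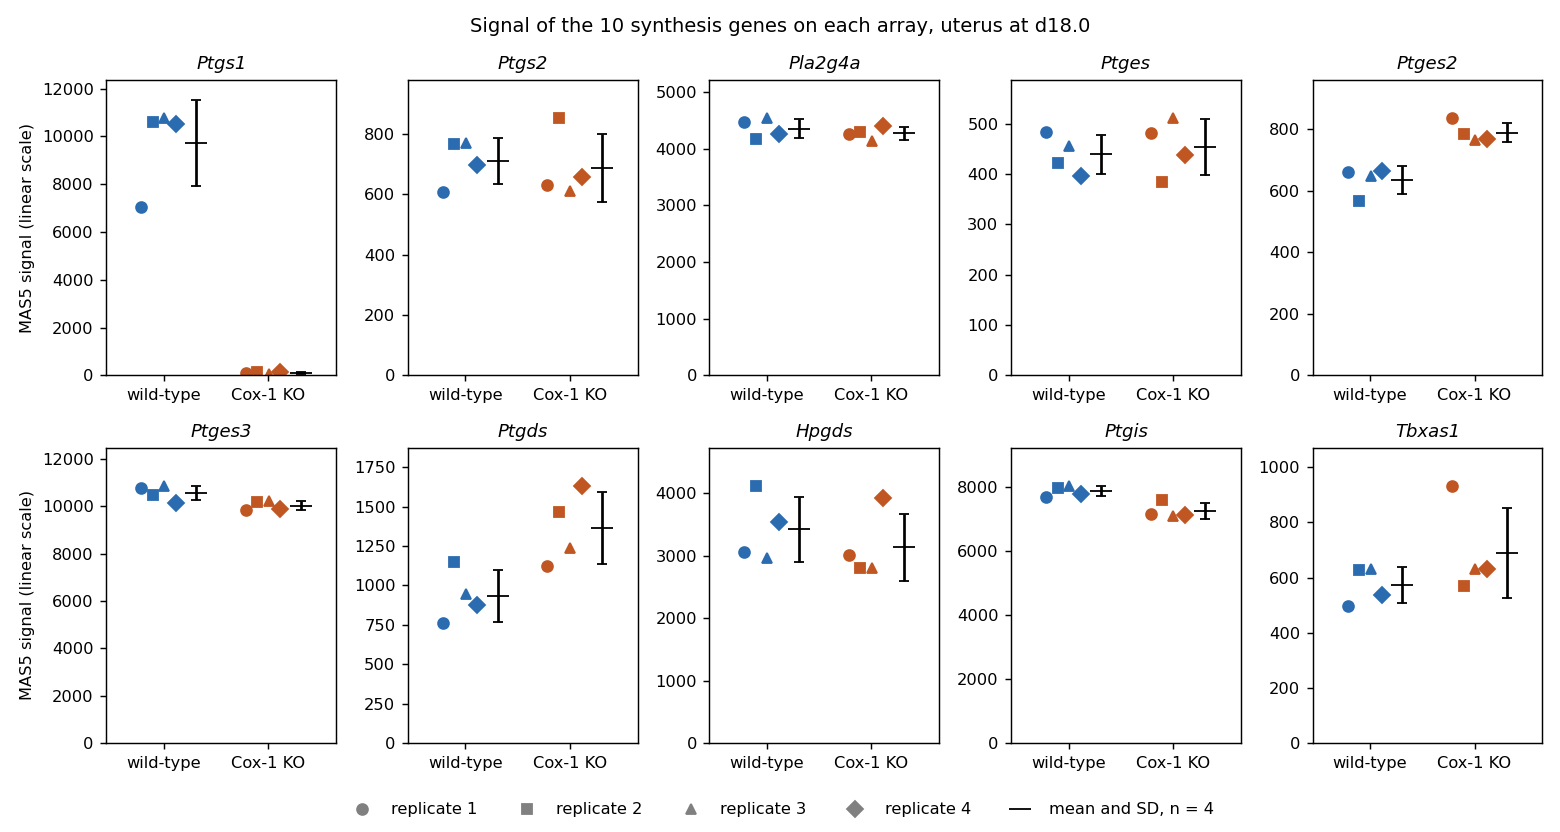
MAS5 signal (linear axes from 0, 1 panel per gene) of the 10 synthesis genes on each of the 8 arrays. Points are single arrays, shaped by replicate number, and bars are the mean with SD (n = 4). Ptgs1 drops from 9730.5 to 105.5, while for 7 of the other 9 genes the arrays of the genotypes overlap.

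Ptgs2, which encodes the inducible Cox-2, did not pass the test, and its signal was nearly the same in both genotypes. On its brightest probe set it was 607, 766, 770 and 696 for wild-type and 629, 851, 610 and 656 for Cox-1 KO uterus. The highest array was Cox-1 KO replicate 2 and the lowest wild-type replicate 1, and the groups overlapped. The means were 709.75 ± 76.5 and 686.5 ± 111 (SD, n = 4 per genotype), with a log2 difference of -0.05 (SE 0.131, limma adjusted p = 0.925). The 95% confidence interval of the ratio ran from 0.788 to 1.18. A second probe set of Ptgs2 gave 393, 891, 589 and 518 for wild-type and 558, 591, 535 and 549 for Cox-1 KO uterus, with a log2 difference of -0.04 and an interval of the ratio of 0.714 to 1.33. Its wild-type arrays were spread widely, with a coefficient of variation of 35.4% against 4.26% for Cox-1 KO uterus. The sign of this small Ptgs2 difference changed with how the arrays high in yolk sac transcripts were treated, and a dependence on them was not tested. These arrays are wild-type replicate 4 and Cox-1 KO replicates 1, 3 and 4, so the transcripts and the genotype are partly confounded. With these transcripts as a covariate the log2 difference was 0.07 (limma adjusted p = 0.991). Without those 4 arrays, which leaves a single Cox-1 KO array, it was 0.26.

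Pla2g4a, the cytosolic phospholipase A2 that frees arachidonic acid, had a narrow spread and no difference that passed. Its signal was 4468, 4167, 4539 and 4258 for wild-type and 4257, 4298, 4130 and 4399 for Cox-1 KO uterus, with overlap of the groups. The log2 difference was -0.03 (SE 0.0566, limma adjusted p = 0.905), and the interval of the ratio was 0.899 to 1.07. In GRCm38.p6 it is the direct neighbor of Ptgs2 on chromosome 1, with 0 protein-coding genes between them.

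The prostaglandin E synthases differed from each other in how they compared between the genotypes. Ptges encodes the inducible membrane enzyme that is often coupled to Cox-2. Its signal was 484, 423, 455 and 396 for wild-type and 482, 384, 511 and 439 for Cox-1 KO uterus. Both the highest and the lowest array were of the Cox-1 KO group, and the log2 difference was 0.04 (SE 0.131, limma adjusted p = 0.944, interval of the ratio 0.844 to 1.26). The direction turned when wild-type replicate 4 (-0.0061), Cox-1 KO replicate 3 (-0.017) or the 4 arrays high in yolk sac transcripts (-0.24) were left out.

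Ptges2, a membrane-associated prostaglandin E synthase, was higher on every Cox-1 KO array than on any wild-type array, but did not pass over all probe sets. The signal was 663, 567, 647 and 665 for wild-type and 836, 785, 767 and 770 for Cox-1 KO uterus. The gap between the groups lay between 665 and 767. The means were 635.5 ± 46.4 and 789.5 ± 31.98 (SD, n = 4 per genotype), a log2 difference of 0.32 (SE 0.0957, limma adjusted p = 0.488). An exact permutation test over the 8 arrays gave a two-sided p = 0.0286, the smallest that 4 arrays against 4 allow. The interval of the ratio was 1.08 to 1.44. Leaving out single arrays gave a log2 difference of 0.26 to 0.34.

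Ptges3 encodes p23, a cytosolic prostaglandin E synthase that is also a co-chaperone of Hsp90. Both of its probe sets are annotated to a pseudogene, Ptges3-ps, as well, so their signal cannot be given to Ptges3 alone. The brighter one gave 10757, 10489, 10843 and 10155 for wild-type and 9837, 10160, 10215 and 9899 for Cox-1 KO uterus. Cox-1 KO replicates 2 and 3 lay just inside the wild-type range, and the log2 difference was -0.07 (SE 0.0468, limma adjusted p = 0.662). On the other probe set it was 0.01, with signals of 8229 to 9459 for wild-type and 8578 to 9724 for Cox-1 KO uterus. The probe sets thus disagreed in direction, and both intervals of the ratio lay between 0.884 and 1.11.

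Ptgds, the lipocalin-type prostaglandin D synthase, had the largest difference of the 9 genes other than Ptgs1. Its signal was 763, 1151, 945 and 875 for wild-type and 1126, 1466, 1236 and 1629 for Cox-1 KO uterus. The groups overlapped at 1 pair of arrays only, wild-type replicate 2 at 1151 and Cox-1 KO replicate 1 at 1126. The means were 933.5 ± 163 and 1364.25 ± 226 (SD, n = 4 per genotype), a log2 difference of 0.55 (SE 0.146, limma adjusted p = 0.401). It did not pass over all probe sets, and 4.35% of all probe sets had a larger difference in either direction. The exact permutation test gave a two-sided p = 0.0571. A second probe set of Ptgds gave 336, 549, 379 and 402 for wild-type and 462, 588, 588 and 650 for Cox-1 KO uterus, again with wild-type replicate 2 the highest of its group. Its log2 difference was 0.47 (SE 0.168, limma adjusted p = 0.53). Leaving out single arrays gave 0.46 to 0.65 on the brighter probe set, and its interval of the ratio was 1.17 to 1.83.

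Hpgds, the hematopoietic prostaglandin D synthase of mast cells and other immune cells, did not pass the test, and its difference had the opposite sign to that of Ptgds, a contrast that was not tested. Its signal was 3067, 4114, 2958 and 3546 for wild-type and 3016, 2803, 2811 and 3927 for Cox-1 KO uterus. Wild-type replicate 2 and Cox-1 KO replicate 4 were the highest of their groups, as they were for Ptgds, and the groups overlapped. With the genotype means taken out, the correlation of Hpgds with Ptgds over the 8 arrays was 0.67. The log2 difference was -0.13 (SE 0.129, limma adjusted p = 0.796), with an interval of the ratio of 0.753 to 1.12. The summed signal of the 6 measured mast cell markers was 4907 to 8436 for wild-type and 3508 to 7778 for Cox-1 KO uterus. Their highest array was wild-type replicate 1, where Hpgds was at 3067. Among the Cox-1 KO arrays the markers and Hpgds were both highest on replicate 4, at 7778 and 3927. All 6 markers had a negative log2 fold change, with a median of -0.23, and the part of mast cells in the Hpgds signal was not tested.

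Ptgis, the prostacyclin synthase of smooth muscle and endothelium, was slightly lower on every Cox-1 KO array than on any wild-type array, but did not pass. The signal was 7670, 7968, 8017 and 7781 for wild-type and 7160, 7602, 7087 and 7107 for Cox-1 KO uterus. The gap was narrow, between 7602 on Cox-1 KO replicate 2 and 7670 on wild-type replicate 1. The means were 7859 ± 162 and 7239 ± 244 (SD, n = 4 per genotype), a log2 difference of -0.12 (SE 0.0498, limma adjusted p = 0.552). Its exact permutation p was 0.0286, and the interval of the ratio was 0.853 to 0.994. Cox-1 KO replicate 2, the highest of its group, was also the only Cox-1 KO array low in yolk sac transcripts. With these transcripts as a covariate the log2 difference was -0.09, and without the 4 arrays high in them it was -0.05. The summed signal of 7 endothelial markers was 12936 to 13973 for wild-type and 12575 to 13787 for Cox-1 KO uterus, and the part of endothelial cells in the Ptgis signal was not tested.

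Tbxas1, the thromboxane synthase of platelets and macrophages, was high on 1 Cox-1 KO array and otherwise overlapped. Its signal was 498, 626, 630 and 536 for wild-type and 931, 568, 632 and 631 for Cox-1 KO uterus. Replicate 1 of the Cox-1 KO mice, at 931, lay above all other arrays. The log2 difference was 0.25 (SE 0.159, limma adjusted p = 0.665, interval of the ratio 0.934 to 1.52). It was 0.10 without Cox-1 KO replicate 1, and -0.03 without the 4 arrays high in yolk sac transcripts, of which Cox-1 KO replicate 1 is the highest. On Cox-1 KO replicate 1 the summed signal was 9709 for the 5 measured platelet markers of 6 listed and 57062 for the 9 macrophage markers. The other 7 arrays ran from 8113 to 9791 and from 52129 to 60688. Taken as the mean log2 signal, which weights the genes equally, the platelet list was highest on that array, at 10.31 against 9.63 to 10.15 on the other 7. Ppbp, a platelet chemokine gene chosen after its values were seen, was at 1487 there, against 258 to 365 on the wild-type arrays. It was also at 1396 on Cox-1 KO replicate 3, where Tbxas1 was at 632. Gp1bb was at 290, 287, 242 and 309 on the Cox-1 KO arrays, against a wild-type range of 160 to 250. It was thus above that range on Cox-1 KO replicates 2 and 4 as well, where Tbxas1 was at 568 and 631. The other measured platelet markers lay inside their wild-type ranges on Cox-1 KO replicate 1. Pf4 was at 4999 (wild-type 4919 to 5491), Itga2b at 665 (522 to 673) and Itgb3 at 2268 (2233 to 3126). None of the measured platelet or macrophage markers was at 0, and the part of these cells in the Tbxas1 signal was not tested.

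**Figure D2:**
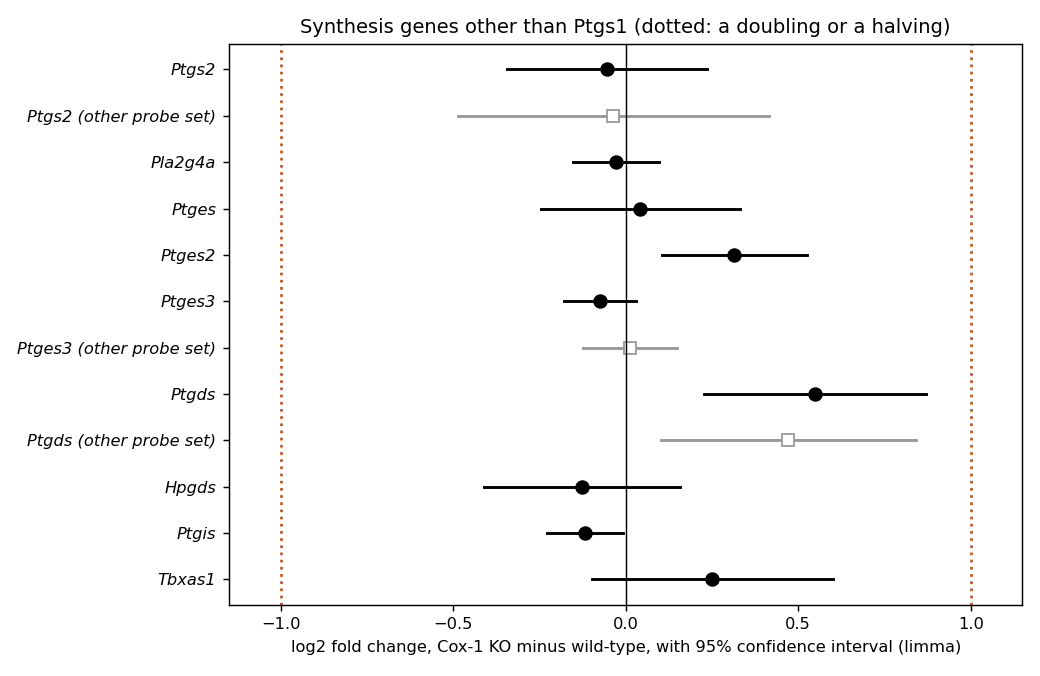
Log2 fold change (Cox-1 KO minus wild-type) with its 95% confidence interval from limma for the 12 probe sets of the 9 genes other than Ptgs1. Filled circles are the brightest probe set of a gene, open squares the other one, and dotted lines mark a 2-fold rise or fall. All 12 intervals end inside these lines, and Ptgds reaches furthest, to 1.83-fold.

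Ptgs1 was past the adjusted threshold, but it is the gene deleted in the Cox-1 KO mice, and its call says nothing about the other synthesis genes. Of the other 9 none passed by limma, against 0.0113% of all probe sets (0.00378% higher and 0.00756% lower). At an unadjusted limma p under 0.05, Ptgds and Ptges2 were higher and Ptgis was lower. That is 3 of 9 genes, where 8.81% of all probe sets had such a p (3.69% higher and 5.12% lower). The arrays of the genotypes did not overlap for 2 of the 9, Ptges2 and Ptgis, against 4.41% of all probe sets (1.5% higher and 2.91% lower). None of the 9 met the thresholds of the methods, which 0.862% of probe sets did. Of the 9 genes, 4 had a positive and 5 a negative log2 fold change, with a median of -0.03, equal at 2 decimals to the median of all probe sets. For all 9 the 95% interval ended below a 2-fold rise, and for 7 of them below 1.5-fold, the exceptions being Ptgds and Tbxas1. These intervals concern transcript signal of whole uterus at d18.0 and are not adjusted for the number of genes.

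The genes near Ptgs1 on chromosome 2 are of interest because the groups also differ in strain. Ptges2, Ptges and Ptgds lie on that chromosome with 56, 86 and 214 protein-coding genes between them and Ptgs1, and Ptgis is there too, with 1260 between. Ptges, which lies between Ptgds and Ptges2, had a log2 difference of 0.04, while those of Ptgds and Ptges2 were 0.55 and 0.32. Effects of strain sequence near the deleted gene and of the missing enzyme on these signals cannot be told apart. The other 5 genes lie on chromosomes 1, 6 and 10, with log2 fold changes of -0.13 to 0.25.

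**Figure D3:**
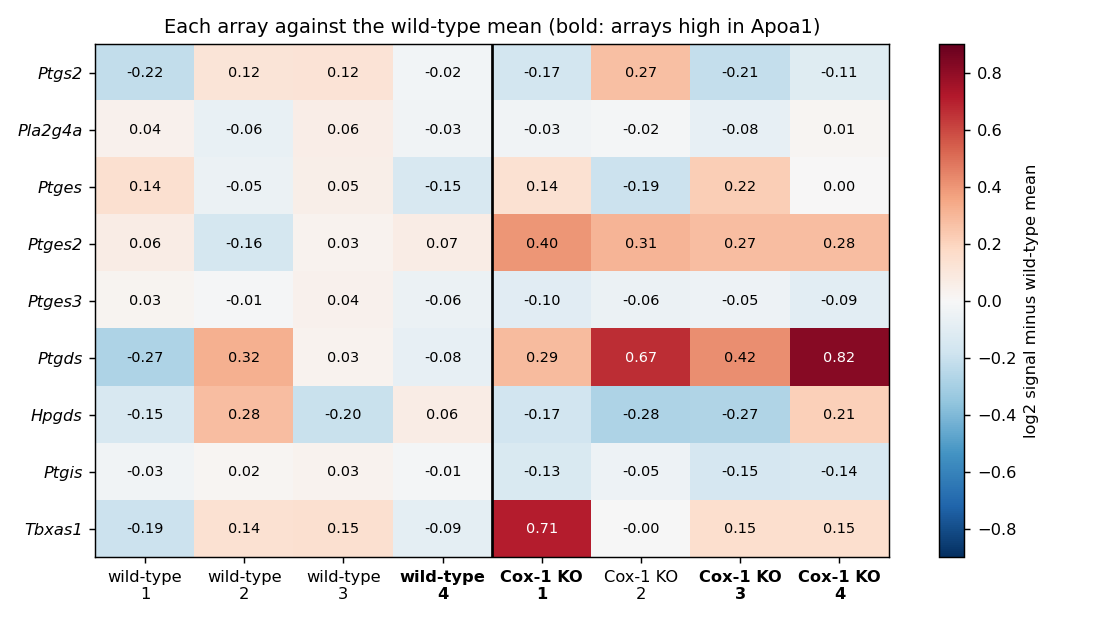
Log2 signal of the 9 genes other than Ptgs1 on each array, minus the wild-type mean of the gene (colour scale and printed values). The 4 Cox-1 KO arrays are at 0.27 to 0.40 for Ptges2 and 0.29 to 0.82 for Ptgds, and Tbxas1 stands out at 0.71 on Cox-1 KO replicate 1 alone.

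Across the 8 arrays the members varied to very different degrees. Within wild-type uterus the coefficient of variation was 2.06% for Ptgis, 2.93% for Ptges3 and 4.00% for Pla2g4a, and 15.4% for Hpgds, 17.5% for Ptgds and 18.4% for Ptgs1. Once the genotype means were taken out, the signal of Ptgs2 ran closest to that of Pros1, the anticoagulant protein S (Pearson correlation 0.979), followed by Ptgis (0.971) and Pglyrp1, a peptidoglycan recognition protein (0.962). These are the highest of 12663 genes over 8 arrays, with 48 genes above 0.9, and are given as a description. Ptgis is itself a member, and its correlation with Ptgs2 was the highest among all pairs of the 10 genes. The lowest were -0.79 for Ptges2 with Ptgds and -0.78 for Ptgs1 with Ptges. For both Ptgs2 and Ptgis the highest Cox-1 KO array was replicate 2 and the lowest wild-type array replicate 1.

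No gene around the synthesis steps passed the adjusted threshold either. In 6 lists of neighboring genes 69 were measured above the filter, and 9 of them had an unadjusted limma p under 0.05, against 8.81% of all probe sets, while 3 did not overlap between the genotypes, namely Akr1b10, Cyp4f13 and Cyp2j6, the last named after its values were seen, against 4.41% of all probe sets. Of 27 genes listed for other phospholipases and for arachidonate release 19 were measured, 15 with a positive and 4 with a negative log2 fold change. Their median of 0.14 stood beside -0.03 for all probe sets, and this split was not tested. Some were near background, such as Pla2g5 (34 to 229 for wild-type) among the positive and Pla2g2a (53 to 146 over all arrays) among the negative. The smallest p values in this list belonged to Pnpla2, the adipose triglyceride lipase, and Pla2g12b, a secreted phospholipase A2 family protein. Pnpla2 had a signal of 1689.5 ± 175 for wild-type and 1988 ± 167 for Cox-1 KO uterus (SD, n = 4 per genotype, limma adjusted p = 0.541). Pla2g12b had a log2 difference of 2.28 (SE 0.968, limma adjusted p = 0.553), but 4 of its 8 signals were under 100, close to background, and with these set to 100 the difference was 1.79. Its signal was 51, 82, 51 and 723 for wild-type and 1397, 83, 1001 and 737 for Cox-1 KO uterus. The 4 arrays where Pla2g12b was high are the same 4 that were high in yolk sac transcripts.

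The final step to prostaglandin F2α, the prostaglandin of luteolysis, is made by aldo-keto and carbonyl reductases. Of 16 such genes 11 were measured, 5 with a positive and 6 with a negative log2 fold change, and a median of -0.02. The rest had no deposited probe set of their own, so this step was covered only in part. Akr1b10, an aldo-keto reductase, was lower on every Cox-1 KO array than on any wild-type array, at 2262, 2189, 2107 and 2142 for wild-type and 1641, 2089, 1761 and 1794 for Cox-1 KO uterus. Its log2 difference was -0.26 (SE 0.083, limma adjusted p = 0.505). Cbr3, a carbonyl reductase, had a signal of 1388.75 ± 78.0 and 1173.5 ± 222 (SD, n = 4 per genotype, limma adjusted p = 0.582). Akr1c18, chosen after its values were seen, is the enzyme that also inactivates progesterone. Its signal was 44423 to 53846 for wild-type and 48188 to 53749 for Cox-1 KO uterus, a log2 difference of 0.01 with an interval of -0.14 to 0.15.

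The branches that compete for arachidonic acid were measured in part. In the lipoxygenase branch, 10 of 14 genes were measured, 5 in each direction, with Alox12e, an epidermal lipoxygenase, at 325.5 ± 69.4 for wild-type and 470.25 ± 106 for Cox-1 KO uterus (SD, n = 4 per genotype, limma adjusted p = 0.535) and Alox12, the platelet-type enzyme, at 600.75 ± 38.0 and 521.75 ± 59.0 (SD, n = 4 per genotype, limma adjusted p = 0.616). In the cytochrome P450 branch 7 of 19 were measured. Cyp4f13, a fatty acid hydroxylase, had every Cox-1 KO array above every wild-type array, at 502, 445, 629 and 540 against 700, 675, 843 and 636 (log2 fold change 0.43, standard error 0.135, limma adjusted p = 0.489). Ephx2, the soluble epoxide hydrolase, had signals of 428 ± 124 and 615 ± 176 (SD, n = 4 per genotype, limma adjusted p = 0.572). Of 12 enzymes that load arachidonic acid back into lipid 10 were measured, and none had an unadjusted limma p under 0.05. The smallest belonged to Lpcat3, a lysophospholipid acyltransferase, and Acsl5, an acyl-CoA synthetase, with log2 fold changes of 0.19 and -0.15 (limma adjusted p = 0.601 and 0.623).

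On the side of response and removal, 12 of 15 receptors, transporters and breakdown enzymes were measured, 4 with a positive and 8 with a negative log2 fold change. The prostaglandin E receptors Ptger3 and Ptger2 had the smallest p, with log2 fold changes of -0.48 and -0.36 (limma adjusted p = 0.526 and 0.541), and neither passed.

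**Figure D4:**
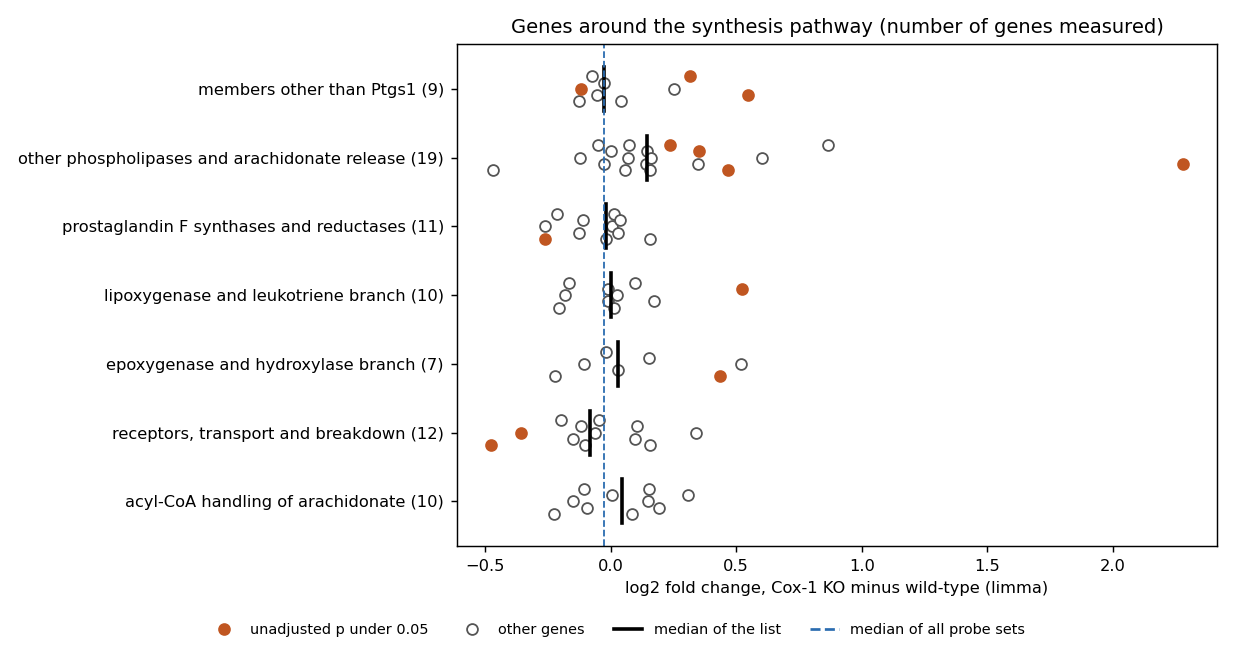
Log2 fold change (Cox-1 KO minus wild-type) of each measured gene in the members other than Ptgs1 and in 6 neighboring lists. Filled points had an unadjusted limma p under 0.05, short bars are list medians and the dashed line is the median of all probe sets at -0.03. Pla2g12b is plotted at 2.28, with 4 of its 8 signals under 100.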

How the data were processed

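The deposited values are intensities: the authors computed a MAS5 signal for each probe set, brought every array to a target of 1000, and gave it in whole numbers. Array controls (60 of the 28000 deposited probe sets) were left out. How the 28000 were chosen from the array is not stated, so shares of all probe sets refer to the deposited ones. In the platform annotation 23579 probe sets have a single gene, 653 several and 3768 none. The 1 signal under 1 was set to 1, signals were taken to log2, and probe sets were kept where 4 arrays had 100 or more. Genotypes were compared with limma 3.58.1 (R 4.3.3), with a trend on mean signal and Benjamini-Hochberg adjustment over 26444 probe sets at a threshold of 0.05. The script was tested on simulated data. A gene was represented by its brightest kept probe set. With 1 mouse on each array, p-values measure the spread between these mice.

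Members and lists were chosen with earlier results of these data known. Named genes are all members, the 2 smallest p of each list, and the 3 genes most correlated with Ptgs1 and with Ptgs2 (for Ptgs2 after removal of the genotype means). The thresholds of the methods, a ratio of 1.5 with an unadjusted p of 0.05 in a test with unequal variances, were an alternative, as were an added constant, other floors, filters and centring, other limma options, a replicate block and leaving out arrays.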

Additional observations from a re-analysis of the deposited data

Results flagged for a closer look

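Among 26 groups of 4 arrays, 13 probe sets in each of the 2 genotypes, 2 held an array far from the other 3, where chance flags about 1 in 20 groups. The Ptgs1 signal of wild-type replicate 1 was 7048, below the 10508 to 10756 of the other wild-type arrays. The Ptgis signal of Cox-1 KO replicate 2 was 7602, above the 7087 to 7160 of the other Cox-1 KO arrays.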

How the results depend on the processing

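Ptgs1 passed the adjusted threshold under every alternative run, at -6.69 to -6.40 on the log2 scale when single arrays were left out, and none of the other 9 genes passed under any (lowest limma adjusted p = 0.252, Ptgds without Cox-1 KO replicate 2). Of 195 values of these 9 genes, 188 kept their direction, but many of the 188 could not have turned. The other filters, the raised floor and the fit without a trend gave each of these genes the log2 difference of the main fit. So did the robust fit, the replicate block and the methods' test. The count is thus no measure of how stable the directions are. Ptgs2 turned to 0.073 with yolk sac transcripts as a covariate. Without the 4 arrays high in Apoa1, chosen after seeing the data and leaving 1 Cox-1 KO array assumed to vary like the others, Ptgs2 was 0.26, Ptges -0.24 and Tbxas1 -0.033. Ptges ran from -0.017 to 0.12 when single arrays were left out, and Ptges3 was 0.013 on its other probe set. The cause was not tested.

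The 3 probe sets past the threshold numbered 18 with array weights, 11 with arrays centred on their medians, 10 with a constant of 32 added before log2, 12 with a floor of 100, 6 with a robust fit, 6 without the arrays high in Apoa1, 228 at the methods' thresholds (2 after adjustment of that test) and 2 to 25 without single arrays (the 25 in the absence of wild-type replicate 1, and 9 in that of Cox-1 KO replicate 2 or 4). Members with an unadjusted p under 0.05, 3 besides Ptgs1, were 1 without the arrays high in Apoa1, 4 by the methods' test without its threshold on the ratio (0 with it) and 2 to 3 without single arrays. In the neighboring lists 0 of 69 genes passed and 9 had an unadjusted p under 0.05, against 8.81% of all probe sets.

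Arrays of the same replicate number did not deviate together (correlations -0.25, 0.22, -0.18 and 0.17), and the main fit used no pairing. The methods state that samples were processed side by side in balanced groups, which are not named. These correlations cannot exclude such a shared handling group. With a replicate block, which left the log2 difference of Ptgs1 at the -6.55 of the main fit, 3 probe sets passed. Ptgs1 was among those past the threshold (limma adjusted p = 1.95e-06). Signals near 100 lie close to background, which leaves a bound for the fall of Ptgs1 on its probe set.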
